A study of Mus musculus with 6 samples.

Results

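Trp53, the mouse gene of the transcription factor p53, and 9 of its target genes were followed in Hepa1-6 cells with and without an intact Matr3 gene. The 10 genes were chosen by name from the deposited table, which holds 55573 rows, and all 10 passed the filter on low counts that left 14842 genes to test. The table covers 6 RNA-seq libraries of Hepa1-6, a cell line from a mouse liver tumour, grown in serum-containing medium: 3 libraries are labelled Matr3 knockout, made with CRISPR/Cas9, and 3 are labelled WT, the same line with no knockout. Separate cultures are not stated for libraries within a group, nor whether the knockout is 1 clone, so p-values reflect how much these 6 libraries varied, and that variation may be only technical. Matrin 3, the product of Matr3, binds nucleic acids in the nucleus, and the study's title concerns its part in liver cancer and the interferon response.

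p53 is held at a low level in unstressed cells by Mdm2, a ubiquitin ligase that p53 itself induces, so that the protein and its antagonist form a feedback loop. DNA damage and other stresses free p53 from Mdm2, mostly by changes to the protein and not to its mRNA, and p53 then binds DNA as a tetramer and raises genes of cell cycle arrest, apoptosis, DNA repair and metabolism. In the liver p53 restrains the growth of tumours, and its targets are a common readout of its activity. mRNA counts do not show the amount, modification or sequence of the p53 protein.

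Library totals ranged from 20736570 to 30794032 counts. Knockout library 2 stood apart from the other knockout libraries in composition. The correlation between GC content and its departure from the average library, taken across genes, was -0.31. This correlation was 0.32 and 0.31 in knockout libraries 1 and 3 and -0.04, -0.03 and -0.20 in wild-type libraries 2, 1 and 3. Counts were seen for 23440 genes in wild-type library 1 and for 20450 to 21217 in each other library. Knockout libraries held 76.0, 86.1 and 75.3 CPM of Matr3 mRNA (CPM are counts relative to the TMM-scaled library total) and wild-type libraries 129, 125 and 134 CPM, so the targeted transcript was lower in each knockout library but present. The liver identity of the cells was not seen in their mRNA: of 12 liver tumour cell markers, 9 stayed under 1 CPM in each of the 6 libraries, among them Alb, Apoa1 and the liver transcription factor gene Hnf4a, and Ttr and Fgb had 0 counts, which allows up to 0.14 CPM in the shallowest library. The keratins Krt8 and Krt18, both higher in the knockout, gave most of the list's summed level. This sum was 1020 to 1076 CPM in knockout and 578 to 683 CPM in wild-type libraries. The fetal liver gene Afp was detected at 2.14 to 5.06 CPM and went the other way, with each knockout library below each wild-type library. Of 6 macrophage markers, Adgre1 and Lyz2 had 0 counts, and the summed level was 24.9 to 30.3 CPM in knockout and 19.1 to 22.2 CPM in wild-type libraries. The 6 fibroblast markers, of which Dcn, Lum and Col1a2 stayed under 1 CPM, summed to 35.8 to 46.0 and 26.4 to 28.8 CPM. Of the 4 tested fibroblast markers, 2 were higher in each knockout library than in each wild-type library and 1 was lower. These patterns held for 18.3% and 18.4% of all tested genes. The 6 endothelial markers, of which 5 stayed under 1 CPM, summed to 1.48 to 2.24 and 3.50 to 4.27 CPM. The part of these marker lists in the results was not tested.

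Promoter sequences are shown for 5 of the genes: Cdkn1a, a gene of cell cycle arrest, and Ccng1, Aen, Plk2 and Trp53i11, whose mRNA changed. They come from RefSeq (build GRCm38.p6), which had a promoter window for 8 of the 10 genes, and run from 250 bases before the most upstream RefSeq start to 20 bases after it. Capitals mark exact matches to the p53 decamer consensus, the 10-base unit that occurs in 2 copies in a p53 response element and reads the same on both strands. The windows are chr17:29090729-29090998 (plus strand) for Cdkn1a, chr11:40755267-40755536 (minus strand) for Ccng1, chr7:78895677-78895946 (plus strand) for Aen, chr13:110394794-110395063 (plus strand) for Plk2 and chr2:93187298-93187567 (plus strand) for Trp53i11.
Cdkn1a: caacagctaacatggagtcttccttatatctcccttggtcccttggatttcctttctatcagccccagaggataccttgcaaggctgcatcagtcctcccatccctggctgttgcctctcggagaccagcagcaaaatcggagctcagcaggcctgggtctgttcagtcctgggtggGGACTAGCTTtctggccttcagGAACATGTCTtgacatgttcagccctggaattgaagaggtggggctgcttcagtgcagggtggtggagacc
Ccng1: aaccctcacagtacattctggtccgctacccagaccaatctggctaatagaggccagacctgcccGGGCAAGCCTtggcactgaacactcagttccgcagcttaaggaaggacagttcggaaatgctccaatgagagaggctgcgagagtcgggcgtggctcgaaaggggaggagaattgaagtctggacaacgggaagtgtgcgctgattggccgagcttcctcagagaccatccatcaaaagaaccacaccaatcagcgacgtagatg
Aen: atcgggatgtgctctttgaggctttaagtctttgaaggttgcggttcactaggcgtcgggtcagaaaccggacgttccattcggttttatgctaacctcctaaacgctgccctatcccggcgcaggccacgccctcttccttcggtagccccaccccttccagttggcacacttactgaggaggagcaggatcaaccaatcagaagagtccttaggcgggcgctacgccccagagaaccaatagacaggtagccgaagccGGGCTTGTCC
Plk2: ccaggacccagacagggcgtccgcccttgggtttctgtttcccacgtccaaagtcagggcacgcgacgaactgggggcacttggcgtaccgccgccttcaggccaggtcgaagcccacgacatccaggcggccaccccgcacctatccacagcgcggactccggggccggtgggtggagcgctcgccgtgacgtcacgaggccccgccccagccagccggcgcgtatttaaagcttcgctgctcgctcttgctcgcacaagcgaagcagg
Trp53i11: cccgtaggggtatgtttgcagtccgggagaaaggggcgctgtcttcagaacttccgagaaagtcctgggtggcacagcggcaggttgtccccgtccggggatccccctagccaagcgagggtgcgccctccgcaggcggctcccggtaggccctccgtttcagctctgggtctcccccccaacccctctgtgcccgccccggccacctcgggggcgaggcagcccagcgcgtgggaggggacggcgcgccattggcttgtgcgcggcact

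The Cdkn1a window holds 2 decamers, which begin 73 and 51 bases before this start, and no other of the 11 windows of these genes holds more than 1. The other RefSeq window of Cdkn1a (chr17:29093519-29093818, plus strand) lies at a start further downstream and holds 0. In Ccng1 a decamer begins 185 bases before the start, and in Aen 10 bases after it. The windows of Trp53 and Mdm2, not printed, hold 1 decamer each, 75 and 186 bases before the start. A decamer occurs in 8.36% of the 32851 RefSeq windows of 300 bases, and 2 decamers no more than 13 bases apart, as in Cdkn1a, in 0.073%. Plk2 and Trp53i11 hold none in their windows. A match describes letters only, and p53 sites can lie outside these windows. Only exact matches are marked, so the capitals, also the pair in Cdkn1a, need not be the sites that p53 binds.

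Between knockout and wild type, 5 of the 10 genes changed and 5 did not pass the test: Zmat3, Aen, Ccng1 and Trp53i11 fell and Plk2 rose (edgeR quasi-likelihood F test, adjusted p under 0.05 over all tested genes). Over all tested genes 15.2% were called, 7.69% upward and 7.48% downward. In the same 5 genes the groups did not overlap, which held for 36.6% of all tested genes, 18.3% with the knockout higher and 18.4% with it lower. In bulk samples fewer expressing cells and less RNA per cell cannot be told apart. The genes at the core of the pathway, Trp53 with its antagonist Mdm2 and the arrest gene Cdkn1a, had log2 fold changes between -0.07 and -0.01. The median log2 fold change was -0.15 over the 10 genes and -0.02 over all tested genes. The authors' deposited table gives an adjusted p under 0.05 for 5 of the 10 genes, with log2 fold changes of -2.10 for Trp53i11, -0.77 for Aen, -0.75 for Zmat3, 0.59 for Plk2 and -0.45 for Ccng1.

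**Figure D1:**
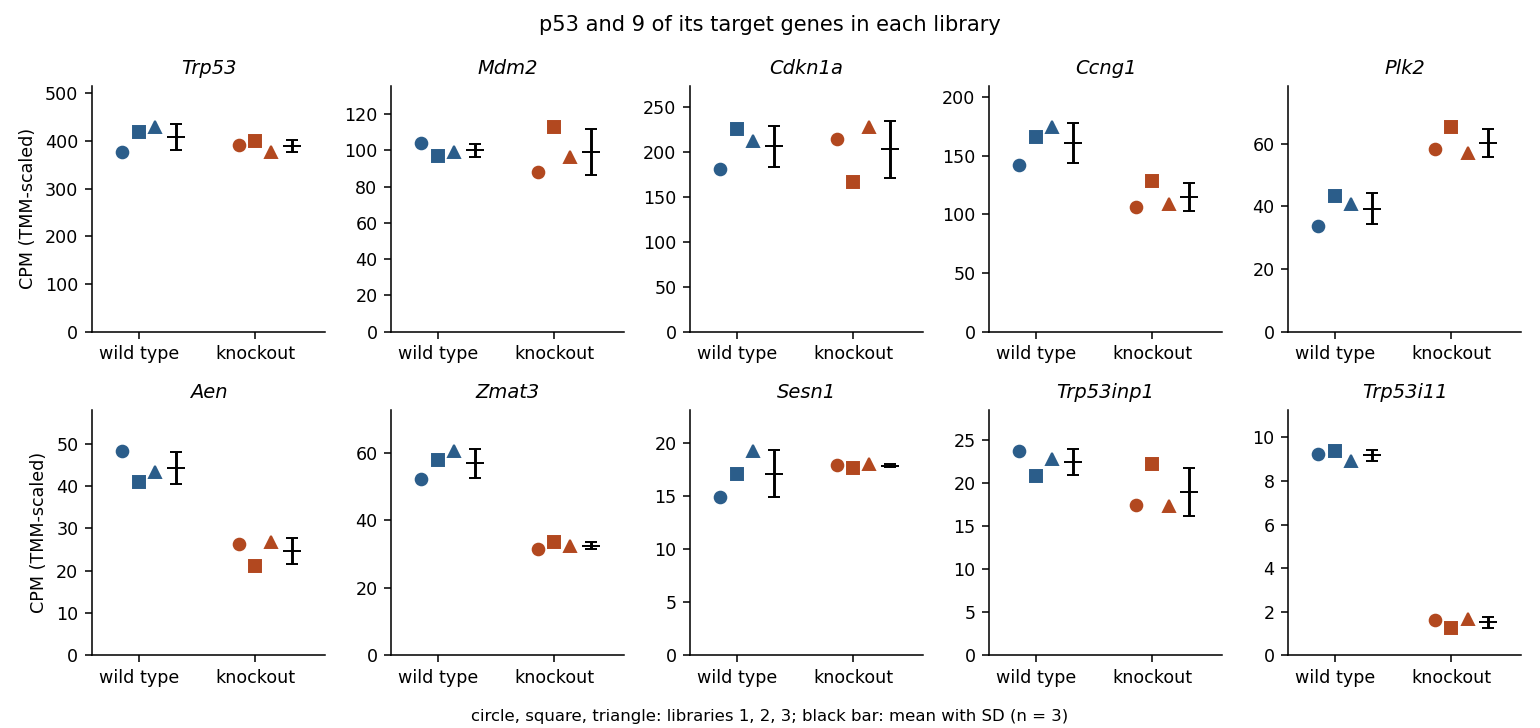
CPM of p53 and 9 of its target genes in each library (linear axes from 0; circle, square and triangle are libraries 1, 2 and 3; black bars are the mean with SD, n = 3). The groups are apart in Ccng1, Plk2, Aen, Zmat3 and Trp53i11 and overlap in the other 5 genes.

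Trp53 was the most abundant of the 10 transcripts. Trp53 (ENSMUSG00000059552; chromosome 11, 69471185 to 69482699 in the table's coordinates, plus strand) stood at 392, 401 and 376 CPM in knockout libraries 1 to 3 and at 376, 418 and 429 CPM in wild-type libraries 1 to 3. The groups overlapped, with wild-type library 1 as low as knockout library 3. The log2 fold change was -0.07 (95% interval -0.27 to 0.14, edgeR adjusted p = 0.65). The processed pseudogene Trp53-ps took 360 counts over the 6 libraries, and how reads shared with it were assigned is not known. Mdm2 (ENSMUSG00000020184; chromosome 10, 117524780 to 117546663, minus strand), whose product ubiquitinates p53, was at 88.1, 113 and 96.5 CPM in knockout libraries 1 to 3 and, in the wild type, at 104, 97.1 and 99.0 CPM. Knockout libraries 1 and 2 were the lowest and the highest of all 6, and the wild-type libraries lay between them. The log2 fold change was -0.01 (95% interval -0.26 to 0.23, edgeR adjusted p = 0.949), and its sign turned in 7 of 19 alternative settings.

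Of the 3 genes of the cell cycle, 1 did not pass, 1 fell and 1 rose. Cdkn1a (ENSMUSG00000023067; chromosome 17, 29309950 to 29319701, plus strand), which encodes the kinase inhibitor p21, the main effector of arrest by p53, was at 214, 167 and 228 CPM in knockout libraries 1 to 3 and, in the wild type, at 181, 225 and 213 CPM. Its lowest value was in knockout library 2 and its highest in knockout library 3, with log2 fold change -0.03 (95% interval -0.34 to 0.29, edgeR adjusted p = 0.919), and the sign turned in 5 of 19 alternative settings. A transcript on the other strand, 1700023B13Rik, overlaps 1046 bases of it but took 120 counts over the 6 libraries. Ccng1 (ENSMUSG00000020326; chromosome 11, 40639379 to 40646138, minus strand) encodes cyclin G1, which recruits a phosphatase to Mdm2. Ccng1 was at 107, 129 and 109 CPM in knockout libraries 1 to 3 and, in the wild type, at 142, 166 and 175 CPM, with each knockout library below each wild-type library. Ccng1 averaged 115 ± 12.2 against 161 ± 16.9 CPM (SD, n = 3 each), which gave a log2 fold change of -0.49 (SE 0.115, edgeR adjusted p = 0.0267). The adjusted p missed the threshold when any of knockout libraries 1 and 3 and wild-type libraries 2 and 3 was dropped (edgeR adjusted p from 0.10 to 0.14). Plk2 (ENSMUSG00000021701; chromosome 13, 110531580 to 110537378, plus strand), a polo-like kinase of centriole duplication and the stress response, was at 58.4, 65.4 and 57.2 CPM in knockout libraries 1 to 3 and, in the wild type, at 33.7, 43.3 and 40.8 CPM. It was the only one of the 10 to rise, from 39.2 ± 4.96 to 60.4 ± 4.42 CPM (SD, n = 3 each), 1.54-fold, with log2 fold change 0.62 (SE 0.114, edgeR adjusted p = 0.0109).

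Aen and Zmat3 fell by similar amounts, and in both the groups were well apart. Aen (ENSMUSG00000030609; chromosome 7, 78545602 to 78560957, plus strand) encodes a nuclease that cuts DNA in apoptosis. Aen was at 26.3, 21.2 and 26.7 CPM in knockout libraries 1 to 3 and, in the wild type, at 48.3, 40.8 and 43.3 CPM, means of 24.7 ± 3.08 and 44.2 ± 3.82 CPM (SD, n = 3 each). The level fell by 44.0%, a log2 fold change of -0.84 (SE 0.122, edgeR adjusted p = 0.00426). Zmat3 (ENSMUSG00000027663; chromosome 3, 32388941 to 32420163, minus strand) encodes an RNA-binding zinc finger protein that acts on the stability and splicing of mRNAs. Zmat3 was at 31.5, 33.7 and 32.4 CPM in knockout libraries 1 to 3 and, in the wild type, at 52.1, 57.8 and 60.6 CPM, means of 32.5 ± 1.08 and 56.9 ± 4.34 CPM (SD, n = 3 each). The level fell by 42.8%, a log2 fold change of -0.81 (SE 0.0914, edgeR adjusted p = 0.00179). Among the 10 genes Aen and Zmat3 kept their direction and call in each of the 19 alternative settings, as did Trp53i11.

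Trp53i11 changed most of the 10 genes and was the least abundant of them. Trp53i11 (ENSMUSG00000068735; chromosome 2, 93017893 to 93032104, plus strand), known as a p53-induced gene of poorly defined function, had 38, 39 and 48 counts in the knockout and 198, 251 and 234 counts in the wild type. In CPM these were 1.64, 1.24 and 1.69 against 9.24, 9.39 and 8.90, so the spread within each group was small beside the gap. The level was 6.03-fold lower in the knockout, a log2 fold change of -2.59 (SE 0.183, edgeR adjusted p = 0.000242). On the log2(FPKM + 1) scale, which shrinks changes of low genes, the difference was -1.30.

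The other 2 stress genes did not pass. Sesn1 (ENSMUSG00000038332; chromosome 10, 41685931 to 41784420, plus strand), a sestrin that restrains mTORC1 and oxidative stress, was at 18.0, 17.7 and 18.0 CPM in knockout libraries 1 to 3 and, in the wild type, at 14.9, 17.1 and 19.3 CPM, with log2 fold change 0.06 (95% interval -0.21 to 0.34, edgeR adjusted p = 0.761). The knockout values lay inside the range of the wild type. Trp53inp1 (ENSMUSG00000028211; chromosome 4, 11156431 to 11174379, plus strand), a stress-induced protein that promotes phosphorylation of p53 and autophagy, was at 17.4, 22.2 and 17.3 CPM in knockout libraries 1 to 3 and, in the wild type, at 23.8, 20.8 and 22.8 CPM. Knockout library 2 was within the range of the wild type and knockout libraries 1 and 3 below it. The log2 fold change was -0.24 (95% interval -0.54 to 0.06, edgeR adjusted p = 0.251). Without knockout library 2 it was -0.37 and passed (edgeR adjusted p = 0.0288), and with the trend of each library with GC content and length removed it was -0.08 (edgeR adjusted p = 0.549).

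**Figure D2:**
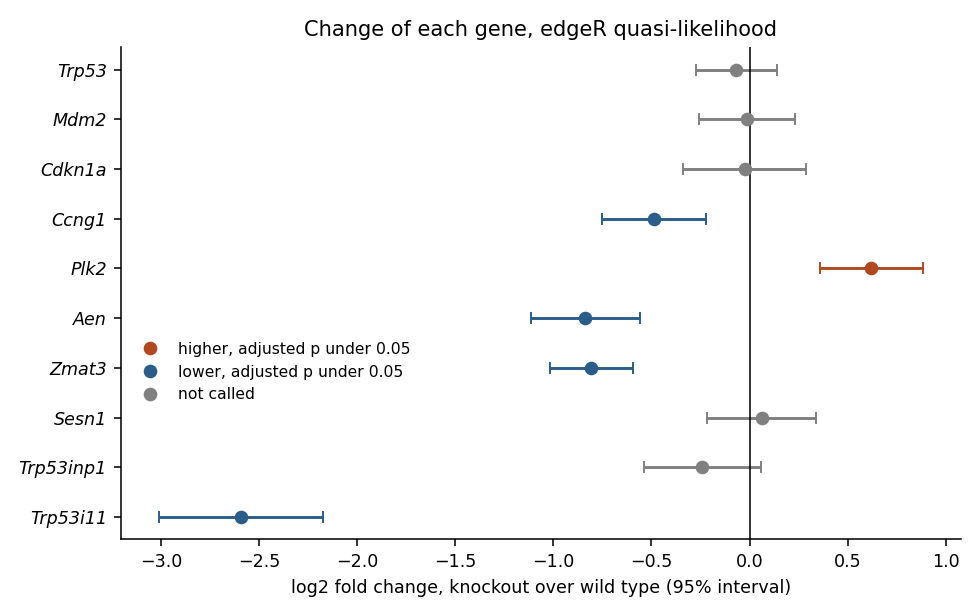
Log2 fold change of each of the 10 genes, knockout over wild type, with its 95% interval from edgeR (colour marks the call). The intervals of Trp53, Mdm2, Cdkn1a, Sesn1 and Trp53inp1 include 0, and Trp53i11 lies at -2.59.

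Levels between genes were compared per length, on the deposited FPKM scale. Trp53 stood at 91.2 to 106 FPKM over the 6 libraries, Cdkn1a at 47.3 to 64.1, Ccng1 at 30.2 to 49.7, Mdm2 at 17.3 to 22.4 and Plk2 at 7.36 to 14.7. Aen (3.67 to 8.17), Sesn1 (3.68 to 4.85), Zmat3 (2.74 to 5.30) and Trp53inp1 (2.67 to 3.60) followed, and Trp53i11 came last at 0.34 to 2.54. In this order Trp53 was above Cdkn1a, Ccng1 above Mdm2, Mdm2 above Plk2 and Trp53inp1 above Trp53i11 in each library. The ranges of Cdkn1a and Ccng1 over the 6 libraries overlapped, but within each library Cdkn1a was above Ccng1. The ranges of Plk2 and Aen, Aen and Sesn1, Sesn1 and Zmat3, and Zmat3 and Trp53inp1 also overlapped.

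The 10 genes did not share 1 pattern over the libraries. Likeness was taken as the root mean square difference of log2 CPM, centred over the 6 libraries, and is given as a description. By this measure genes that varied little lie close to each other, and genes that are close have similar fold changes. The closest 2 of the 10 were Trp53 and Sesn1 (0.09), followed by Mdm2 and Trp53inp1 (0.12). Among the knockout libraries, library 2 was the highest for Trp53, Mdm2, Ccng1, Zmat3, Plk2 and Trp53inp1 and the lowest for Cdkn1a, Aen, Sesn1 and Trp53i11. The longest transcripts of the first 6 hold from 38.8% (Trp53inp1) to 53.3% GC (Trp53) and those of the other 4 from 49.8% (Sesn1) to 56.5% (Trp53i11), ranges that overlap, beside the opposite GC correlation of that library. Ccng1 and Zmat3 differed by 0.17 and Zmat3 and Aen by 0.18. Among 9913 protein-coding genes that averaged 5 CPM or more, those nearest to Trp53 were the chaperonin gene Cct2 (0.02) and Suclg1 (0.02), those nearest to Mdm2 were Nbea (0.03) and Tbc1d23 (0.03), and those nearest to Cdkn1a were Pgp (0.03) and Psmb10 (0.04). Nearest to Trp53i11 were Oplah (0.13; log2 fold change -2.18) and Draxin (0.14; -2.43).

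No gene within 500 kb of Aen or Trp53i11 was called lower, but some low-count neighbours had negative values. Within 500 kb of the start of Trp53i11, 6 other genes were tested: the tetraspanin gene Cd82 (log2 fold change 1.07, edgeR adjusted p = 0.00229) and Syt13 (0.56, 0.0133) rose, and 0 fell. The noncoding gene 4631405J19Rik, which averaged 0.187 CPM against 0.694 CPM in wild-type libraries, had a log2 fold change of -1.82 and did not pass (edgeR adjusted p = 0.0736). The nearest tested coding neighbour of Trp53i11, Prdm11, 141 kb upstream, had a log2 fold change of -0.05 (edgeR adjusted p = 0.808). Of 8 genes around Aen, 1 rose and 0 fell, and Gm44639, at under 1 CPM in both group means, had a log2 fold change of -1.32 (edgeR adjusted p = 0.287). The gene that rose, Isg20, an interferon-induced exonuclease related to Aen, starts 17.6 kb downstream and went from 18.9 ± 0.462 to 29.8 ± 0.736 CPM (SD, n = 3 each; log2 fold change 0.66, edgeR adjusted p = 0.00357). Around Trp53, 10 of 52 tested genes rose and 0 fell, 19.2% beside 7.69% of all tested genes called upward; the median GC content of these 52 was 54.4%, against 49.6% for all tested genes, and its part was not tested. Wrap53, which starts 104 bases from Trp53 on the other strand, had a log2 fold change of 0.10 (edgeR adjusted p = 0.648).

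**Figure D3:**
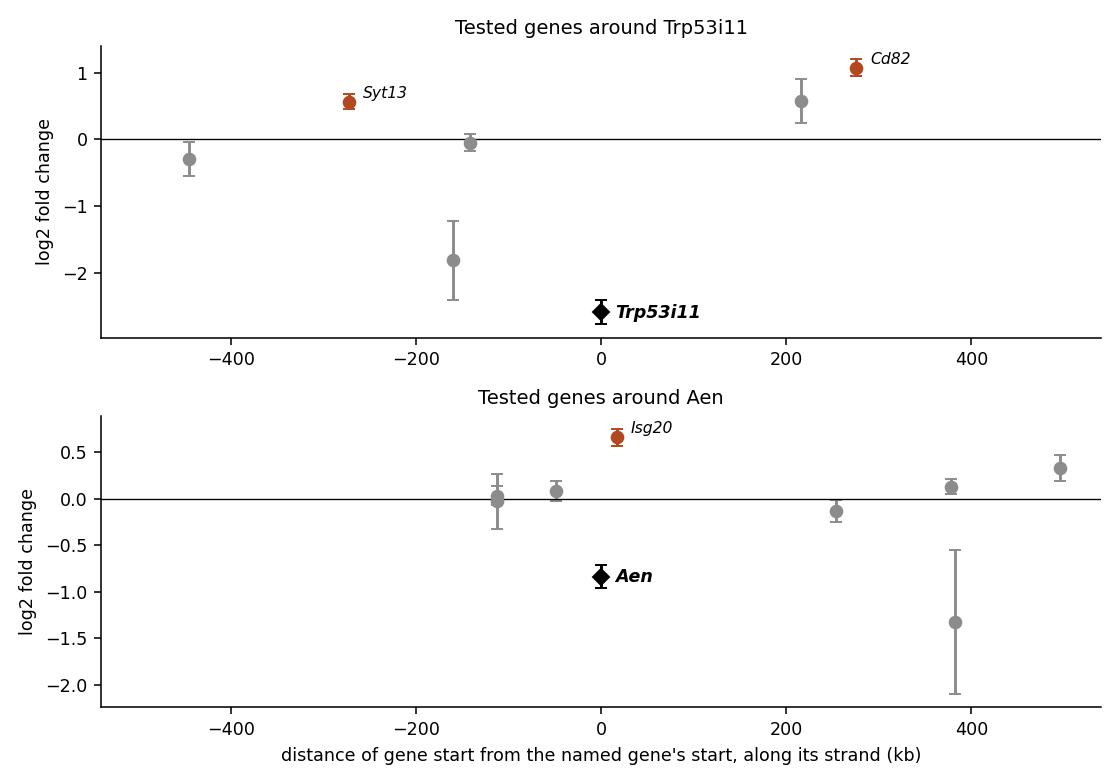
Log2 fold change, knockout over wild type, of tested genes within 500 kb of Trp53i11 (top) and Aen (bottom), by distance of their starts in kb (bars are SE; colour marks genes that rose). Trp53i11 at -2.59 and Aen at -0.84 lie below the called genes in their windows, and Gm44639, which did not pass, lies below Aen at -1.32.

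The rest of the pathway was followed in lists of textbook genes. Of 85 further p53 targets 84 were in the table and 78 were tested: 7 rose, 6 fell and 65 did not pass, 16.7% called beside 15.2% of all tested genes (edgeR adjusted p under 0.05). The median log2 fold change was 0.00, with 39 values above 0 and 39 below. Among 16 targets listed under apoptosis 2 rose and 3 fell, and the listing does not establish a part in apoptosis for each gene. Pmaip1, which encodes the BH3-only protein Noxa, was at 14.2, 17.3 and 17.7 CPM in knockout libraries 1 to 3 and, in the wild type, at 8.31, 7.15 and 8.10 CPM, and rose by 1.06 on the log2 scale (SE 0.137, edgeR adjusted p = 0.00288). Dcxr rose by 0.96 (edgeR adjusted p = 0.0122), while Steap3 (-0.77, 0.00412) and the BH3-only gene Bid (-0.61, 0.00906) fell, as did the decoy receptor gene Tnfrsf23 (-0.80, 0.015; named after its value was seen). The call of Bid ended without knockout library 1 or without knockout library 3, and that of Dcxr without wild-type library 3. The effector Bax, the most abundant of this list, had a log2 fold change of 0.02 (edgeR adjusted p = 0.937) and Ei24 of -0.04 (0.815). Bbc3, which encodes Puma, named after its values were seen, was at 20.7, 6.57 and 22.3 CPM in knockout libraries 1 to 3 and, in the wild type, at 16.6, 15.8 and 13.3 CPM, so knockout library 2 alone was below the wild type.

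Of 9 cell cycle targets Gadd45a, a stress sensor that halts the cycle and aids repair, rose from 9.99 ± 2.02 to 17.6 ± 2.29 CPM (SD, n = 3 each; log2 fold change 0.82, edgeR adjusted p = 0.0185) and Zfp365 fell by 0.42 (edgeR adjusted p = 0.0188). Gtse1 (-0.07) and Ckap2 (-0.14) did not pass. Of 11 DNA repair targets 0 were called by edgeR, with 1 at an unadjusted p under 0.05. Of all tested genes 15.2% were called, 7.69% upward and 7.48% downward, and 4607 of 14842 had an unadjusted edgeR p under 0.05. Pcna, the sliding clamp of replication, had a log2 fold change of 0.07 (edgeR adjusted p = 0.674). Of 20 targets in metabolism and redox control 1 rose and 2 fell: Gls2, a glutaminase, rose from 5.12 ± 0.154 to 9.25 ± 0.236 CPM (SD, n = 3 each; 0.85, edgeR adjusted p = 0.00531), and the autophagy kinase gene Ulk1 (-0.42, 0.0261) and Ak1 (-0.67, 0.0280) fell. Gpx1 (-0.34, edgeR adjusted p = 0.0712) and Sesn2 (0.02, 0.896) did not pass. Gpx1 passed in 4 of 19 alternative settings, among them without wild-type library 1 (-0.42, edgeR adjusted p = 0.0258) and with GC and length trends removed (-0.43, 0.0374). Of 22 targets in signalling and feedback 3 rose and 0 fell, namely the matrix protein gene Thbs1 (0.76, edgeR adjusted p = 0.00918), the receptor kinase gene Epha2 (0.42, 0.0151) and Ccng2 (0.45, 0.0271), with 6 genes at an unadjusted p under 0.05 in either direction. Kitl (0.03) and Ptpn14 (-0.21) did not pass. The calls of Gadd45a, Zfp365, Ulk1, Ak1, Epha2 and Ccng2 each ended without at least 3 of the 6 libraries taken out singly.

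Most genes that control p53 did not pass. Of 53 tested regulators 7 fell, 0 rose and 46 did not pass (edgeR adjusted p under 0.05). The 13.2% called is near the 15.2% of all tested genes called in either direction. All 7 calls were downward, however, beside 7.48% of all tested genes called downward and 7.69% upward. With no filter on low counts 3 fell and 1 rose. Without knockout library 2, 13 of 53 fell and 4 rose, beside 2009 and 2286 of all 15286 genes in that fit. With wild-type library 1 dropped as well, 21 of 53 fell and 8 rose, beside 3806 and 3750 of all 14825 genes. Gnl3, the nucleolar GTPase nucleostemin that binds Mdm2, was at 76.5, 86.1 and 71.6 CPM in knockout libraries 1 to 3 and, in the wild type, at 180, 138 and 148 CPM, and fell by 0.99 on the log2 scale (SE 0.124, edgeR adjusted p = 0.00252). The nucleolar protein gene Ncl fell from 1482 ± 47.1 to 947 ± 96.4 CPM (SD, n = 3 each; -0.65, edgeR adjusted p = 0.00628). The deubiquitinase genes Usp10 (-0.43, edgeR adjusted p = 0.0127) and Usp7 (-0.40, 0.0265), whose products remove ubiquitin from p53 or Mdm2, and the p53 ligase gene Cop1 (-0.36, 0.0395; named after its value was seen) fell. Atm, the kinase that signals DNA breaks to p53, was at 40.6, 47.0 and 41.7 CPM in knockout libraries 1 to 3 and, in the wild type, at 60.5, 60.1 and 62.1 CPM (-0.50, edgeR adjusted p = 0.00944), and Mapk8 fell by 0.36 (0.0378), a call that ended with the GC and length trend removed (edgeR adjusted p = 0.310). Calls of Usp10, Usp7, Atm and Mapk8 ended without knockout library 1, knockout library 3 or wild-type library 3. Named after their values were seen, Mdm4, the partner of Mdm2, was at 167 CPM in wild-type library 1 against 83.9 to 101 CPM in the other 5 libraries, and Cdkn2a, whose alternative product Arf blocks Mdm2, had 0 counts in each library.

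**Figure D4:**
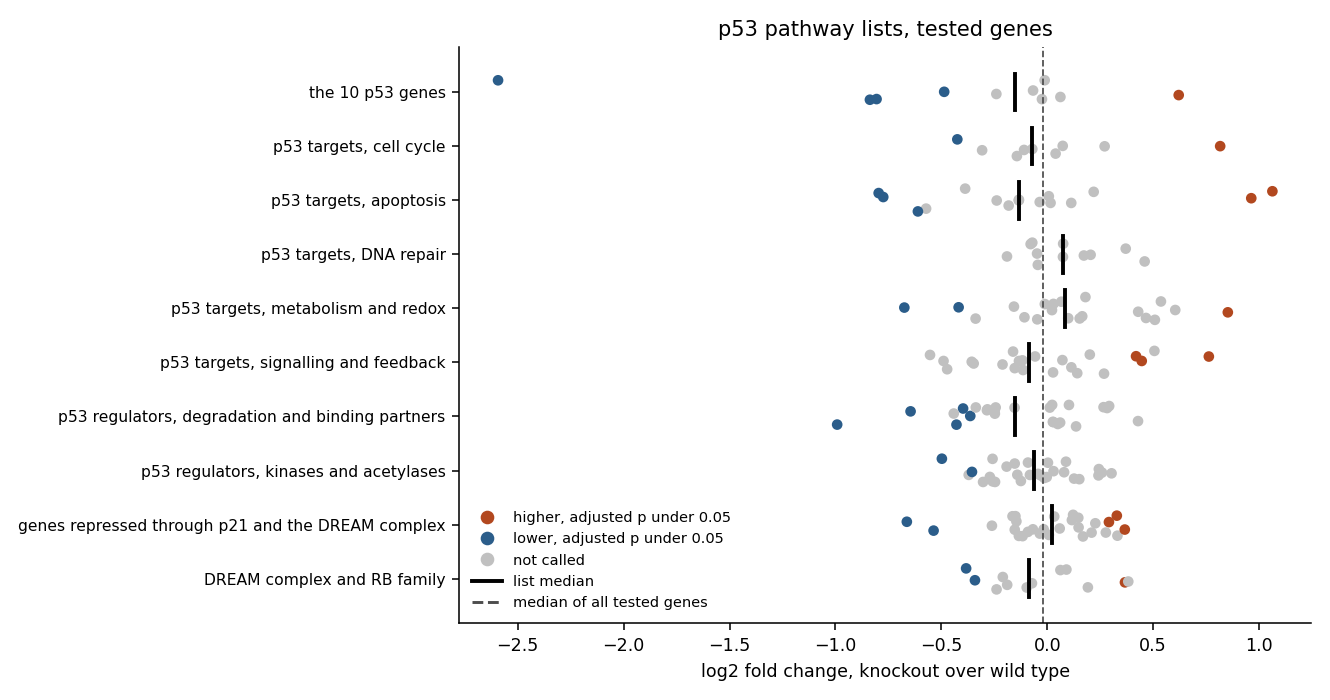
Log2 fold change, knockout over wild type, of the tested genes of each p53 pathway list (points, coloured by call; black bars are list medians; the dashed line is the median of all tested genes, -0.02). Called genes lie on both sides in most lists, and the regulators' called genes all lie below 0.

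Most genes that p53 lowers through p21 did not pass. p21 lets the DREAM complex, built on RB-family proteins, shut promoters of cell cycle genes. Of 28 such targets 3 rose, 2 fell and 23 did not pass, 17.9% called, near the 15.2% of all tested genes, with a median log2 fold change of 0.02 (edgeR adjusted p under 0.05). Ccne1, the cyclin of S-phase entry, fell from 43.6 ± 3.13 to 27.6 ± 0.437 CPM (SD, n = 3 each; -0.66, edgeR adjusted p = 0.00357), and the phosphatase gene Cdc25a fell by 0.54 (0.00996), a call that ended without knockout library 3 or without wild-type library 3. The mitotic genes Aurkb (0.33, edgeR adjusted p = 0.0280), Foxm1 (0.29, 0.0404) and Birc5 (0.37, 0.0431; Birc5 named after its value was seen) rose, but 0 of the list rose without knockout library 1, without knockout library 3, without wild-type library 2 or without wild-type library 3. Of 12 genes of the complex itself Tfdp1 (-0.38, edgeR adjusted p = 0.0176) and E2f4 (-0.34, 0.0323) fell and Rbl1 (0.37, 0.0494), a pocket protein gene, rose; these calls ended without any of 4 libraries taken out singly.

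Of 20 paralogs of the 10 genes 15 were tested: 3 rose, 1 fell and 11 did not pass, 26.7% called beside 15.2% of all tested genes. Cdkn1c, the p57 relative of p21, was at 2.97, 3.0 and 2.60 CPM in knockout libraries 1 to 3 and, in the wild type, at 12.6, 16.1 and 15.6 CPM, a log2 fold change of -2.37 (SE 0.158, edgeR adjusted p = 0.000194), beside -0.03 for Cdkn1a. Ccng2 (0.45) rose where Ccng1 (-0.49) fell, Isg20 (0.66) where Aen (-0.84) fell, and Trp53inp2 (0.57, edgeR adjusted p = 0.0282) rose beside -0.24 for Trp53inp1; this call ended without any library but knockout library 2. The differences between paralogs were not tested. Trp73, a relative of Trp53, had 0 counts in each library and Trp63 was at 0 to 0.0374 CPM.

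**Figure D5:**
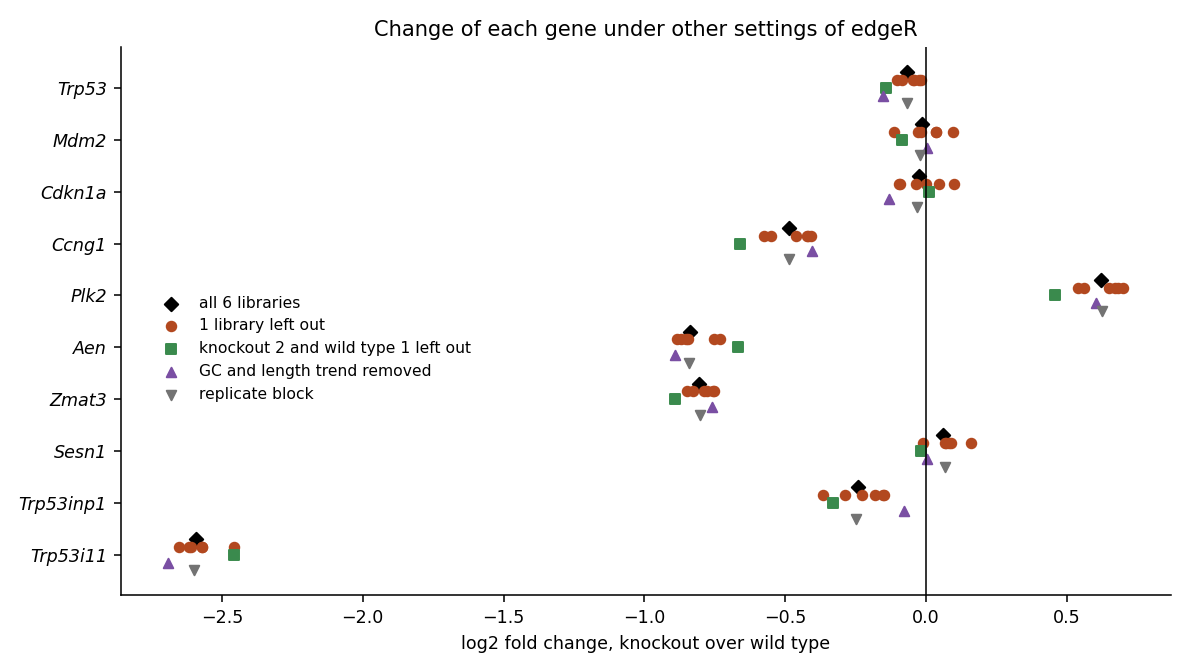
Log2 fold change of each of the 10 genes under other settings of edgeR (diamond: all 6 libraries; circles: 1 library left out; square: knockout library 2 and wild-type library 1 left out; triangle: GC and length trend removed; inverted triangle: replicate block). Trp53i11, Zmat3, Aen, Ccng1 and Plk2 keep their sign in each of these settings.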

How the data were processed

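RNA-seq counts of 3 Matr3 knockout and 3 wild-type libraries were analysed, grouped by the sample titles. Per the labels' protocols, total RNA went into an mRNA library kit; strand, aligner and counter: not given in the sources used here. As deposited by the authors, 1 table holds raw counts per gene, FPKM values, and their own comparison as a mean signal of scaled counts per group, a log2 fold change and p-values. GRCm38 and mm10, 2 names for 1 build, are named in the submitters' processing notes. But 1494 of 52081 identifiers, and 1 of the 10 genes described, have the same coordinates in GENCODE M21 of GRCm38. Trp53 starts at 69471185 in the deposited table, while its RefSeq window on GRCm38.p6 spans 69580109 to 69580408. The table's coordinates are thus not those of GRCm38, and their build was not identified. Gene positions (the table's) and promoter positions (GRCm38.p6) given here cannot be compared.

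Testing used edgeR 4.0.16 in R 4.3.3 on the counts: filterByExpr (14842 of 27065 genes with a count), TMM scaling and the quasi-likelihood F test, knockout against wild type with no covariate, called at a Benjamini-Hochberg adjusted p under 0.05 over all tested genes. Standard errors and 95% intervals follow from the F statistic. The 10 genes and the lists were chosen with earlier results of these data known, so no test was run over a list. Besides the 10 genes, up to 4 called genes with the smallest p of each list and the 2 most abundant tested genes of each target list are named, except 1 gene that is not reported here; the endothelial, fibroblast, macrophage and liver marker lists are given by their levels only. Names beyond this rule, among them the genes near Trp53, Aen and Trp53i11 and the single cell markers, were picked with values known. The fit was checked on simulated counts with known changes in genes averaging 5 CPM or more. It recovered 35.3% of 68 genes changed 1.5-fold, 84.8% of 66 changed 2-fold and 100% of 66 changed 4-fold, among 14619 genes. Of its calls 6.41% were false. The share of changed genes was below the 15.2% called in the data, so these rates need not hold there. A gene that did not pass can thus still have changed. Alternatives were other scalings, filters, tools (DESeq2 1.42.0, limma 3.58.1 on voom weights or on log2(FPKM + 1) and log2(FPKM + 0.1)), a threshold of 0.01, the replicate number as a block, removal of per-library GC and length trends, and leaving out libraries. The 95% intervals include the spread between libraries; limits from counts of 0 (3 counts) cover counting error only, since without molecular identifiers several reads can stem from 1 molecule.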

Additional observations from a re-analysis of the deposited data

How the results depend on the processing

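Of the 10 genes, 5 were called with all libraries, 4 to 6 when 1 library was left out and 3 at an adjusted p under 0.01. Over all tested genes 807 to 4295 were called when 1 library was left out, against 2252, and the further p53 targets called numbered 5 to 22, the regulators 2 to 17 and the p21 and DREAM targets 1 to 8. With knockout library 2 and wild-type library 1 both left out, 7556 of all 14825 tested genes were called. In that fit 7 of the 10 genes were called, among them Trp53inp1 (-0.33, edgeR adjusted p = 0.00932). Called in the lists were 42 of 78 further targets, 29 of 53 regulators and 17 of 28 p21 and DREAM targets. At an adjusted p under 0.01, 721 of 14842 genes were called, with 5 of 78 further targets, 3 of 53 regulators and 2 of 28 p21 and DREAM targets. With no filter on low counts 4 regulators and 3 p21 and DREAM targets were called, and with GC and length trends removed 8 of the latter. The replicate numbers did not pair the samples: deviations of same-numbered libraries correlated at 0.22, -0.04 and -0.29. With the replicate block 5 of the 10 genes, 4 regulators and 2 p21 and DREAM targets were called, and over all genes 1599.

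Log2 fold changes near 0 turned sign in some settings. Over fits without 1 library they spanned -0.11 to 0.10 for Mdm2, -0.094 to 0.10 for Cdkn1a, -0.0090 to 0.16 for Sesn1, -0.02224 to 0.12 for Bax, -0.041 to 0.029 for Ei24, -0.012 to 0.081 for Sesn2 and -0.15 to 0.15 for Kitl. Mdm2 was at 0.0061 with library totals, 0.035 with no filter, 0.0036 at 1 CPM or more and 0.0053 with GC and length trends removed, where Bax was at -0.02226 and Sesn2 at -0.061. With no filter Cdkn1a was at 0.015 and Ei24 at 0.0079. Without knockout library 2 and wild-type library 1 Cdkn1a was at 0.011, Sesn1 at -0.019, Ei24 at 0.0017 and Kitl at -0.23 (edgeR adjusted p = 0.00611), and Trp53 (-0.14, 0.0191) passed. The cause was not tested.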
